A study of Sus scrofa with 10 samples.

Results

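The genes described here were 6 markers of the egg cell in RNA-seq tables of pig ovary: the oocyte growth factors GDF9 and BMP15, the zona pellucida genes ZP2, ZP3 and ZP4, and the transcription factor gene FIGLA. A member was the protein-coding locus that carried the symbol, taking the locus with the largest summed count where several did. Each of the 6 symbols matched 1 locus, out of 19972 protein-coding loci and 43499 loci in all. The samples were ovaries of 10 gilts, young female pigs of a shared genetic background, with 1 library per pig. All 10 were fed the progestin altrenogest from 210 days of age, at 20 mg a day for 18 days, and then had 2 days without it. The 5 pigs of the rpFSH group were then injected with 1000 IU each of recombinant pig follicle-stimulating hormone, a protein produced in CHO cells, and the 5 control pigs received saline in the same volume. Ovaries were taken at 234 days of age, after their surface follicles had been removed. The comparison asked which transcripts differ in the remaining ovary after the hormone.

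GDF9 and BMP15 are secreted proteins of the transforming growth factor beta family that the oocyte makes and that act on the granulosa and cumulus cells around it. The zona pellucida is the glycoprotein coat of the egg, which binds sperm, and its proteins are made by the growing oocyte. FIGLA is a germ cell factor of the basic helix-loop-helix type that pairs with E proteins and is required for zona gene expression in mice. In a piece of whole ovary these transcripts come from few cells, and fewer oocytes cannot be told apart from less RNA per oocyte.

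The positions below are those of the deposited table, on the Sscrofa11.1 build. GDF9 (MSTRG.19590) lay on chromosome 2 from 135180426 to 135187026 on the minus strand, and BMP15 (MSTRG.36124) on chromosome X from 44613122 to 44619398 on the plus strand. ZP2 (MSTRG.20709) and FIGLA (ENSSSCG00000008321) lay on the plus strand of chromosome 3, from 24863730 to 24877522 and from 71709702 to 71715989. ZP3 (MSTRG.20301) lay on the same chromosome from 9934760 to 9944941 on the minus strand, and ZP4 (MSTRG.11255) on chromosome 14 from 53577131 to 53584546 on the plus strand. The GDF9 locus was wider than the gene. The RefSeq gene spans 2958 of its 6601 bases, so 55.2% of the locus lay outside it, and 573 bases overlapped UQCRQ on the opposite strand. For ZP2, 886 bases overlapped TMEM159 on the opposite strand. Whether counting used the strand is not given in the sources used here, so these 2 genes are uncertain where they overlap.

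Total counts ran from 64873797 to 75114003 per library, and 3 counts corresponded to 0.0399 to 0.0462 CPM, counts scaled to library size. These limits cover counting error only. Control pigs 2 and 5 stood apart in markers of ciliated oviduct-type epithelium, with summed levels of 49.6 and 97.9 FPKM (counts scaled by transcript length and library size) against 3.57 to 14.9 in the other 8 pigs. Control pig 2 and rpFSH pigs 1 and 4 stood apart in luteal markers, with sums of 2538, 1292 and 317 FPKM against 10.9 to 51.0 in the rest. Fitted changes of the members and correlations between them are given with and without these pigs. The r values with the member profile were recomputed without control pigs 2 and 5, but not without the pigs high in luteal markers. The zona shares are given for all pigs only.

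GDF9 was the most even of the members. In the control pigs it was at 4.49, 2.36, 3.78, 4.28 and 3.35 FPKM, and in the rpFSH pigs at 4.92, 4.08, 3.20, 3.06 and 3.68 FPKM, in the order of replicates 1 to 5. The lowest pig was control 2, the highest rpFSH 1, and the groups overlapped over most of their range. The control mean was 3.65 ± 0.847 FPKM and the rpFSH mean 3.79 ± 0.750 (SD, n = 5 each), a fitted log2 fold change of 0.12 (SE 0.20, 95% interval -0.32 to 0.56). Its coefficient of variation over the 10 pigs was 20.4%, at percentile 27.6 among the 15170 loci tested, and its highest pig was 2.08 times its lowest. Its ratio of counts to FPKM was 3.83 times that of BMP15, and where its reads fell within the wide locus was not tested.

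BMP15, the partner of GDF9 on the X chromosome, varied far more between pigs. It was at 5.02, 0.460, 5.16, 2.60 and 0.835 FPKM in the control pigs and at 2.36, 4.83, 5.66, 2.00 and 3.20 FPKM in the rpFSH pigs. Control pigs 2 and 5 were the lowest of all 10, while control pigs 1 and 3 were near the highest rpFSH pig, so the control group enclosed most of the rpFSH group. The means were 2.81 ± 2.23 and 3.61 ± 1.58 FPKM (SD, n = 5 each), with a fitted log2 fold change of 0.43 (SE 0.63, 95% interval -0.96 to 1.83). The control pigs spanned 11.2-fold and the rpFSH pigs 2.83-fold.

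The zona genes repeated this pattern pig by pig. ZP2, a structural protein of the zona that takes part in sperm binding, was at 3.84, 0.340, 3.73, 1.11 and 0.655 FPKM in the control pigs and at 0.647, 1.87, 2.49, 1.03 and 1.54 FPKM in the rpFSH pigs. Control pigs 1 and 3 were above every rpFSH pig, and control pig 2 was below every one. The means were 1.94 ± 1.71 and 1.52 ± 0.718 FPKM (SD, n = 5 each), with a fitted log2 fold change of -0.28 (SE 0.66, 95% interval -1.74 to 1.19).

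ZP3, which pairs with the other zona proteins to build the filaments of the coat, was at 4.31, 0.592, 3.94, 2.60 and 1.31 FPKM in the control pigs and at 1.67, 2.98, 3.83, 2.23 and 5.72 FPKM in the rpFSH pigs. The highest value of all was rpFSH pig 5, and the lowest values were again control pigs 2 and 5. The means were 2.55 ± 1.61 and 3.29 ± 1.58 FPKM (SD, n = 5 each), with a fitted log2 fold change of 0.44 (SE 0.53, 95% interval -0.74 to 1.61).

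ZP4, a further structural component of the pig zona, was at 3.95, 0.507, 4.58, 3.29 and 0.874 FPKM in the control pigs and at 1.71, 4.10, 3.95, 2.01 and 2.65 FPKM in the rpFSH pigs. Here too control pigs 2 and 5 were lowest, and the rpFSH pigs lay inside the control range. The means were 2.64 ± 1.84 and 2.88 ± 1.10 FPKM (SD, n = 5 each), with a fitted log2 fold change of 0.20 (SE 0.57, 95% interval -1.06 to 1.46).

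FIGLA was near the limit of detection. It had 0, 0, 9, 21 and 0 counts in the control libraries and 0, 12, 12, 0 and 15 in the rpFSH libraries. The pigs without a count were control 1, 2 and 5 and rpFSH 1 and 4, and control pig 1 was among the highest for BMP15 and every zona gene. In the 5 pigs with counts FIGLA was at 0.171 to 0.355 FPKM, and a count of 0 allows up to 3 counts, so absence was not shown in the others. The fitted log2 fold change was 0.47 with an SE of 1.44 (95% interval -2.72 to 3.66), too wide to exclude large changes in either direction.

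**Figure D1:**
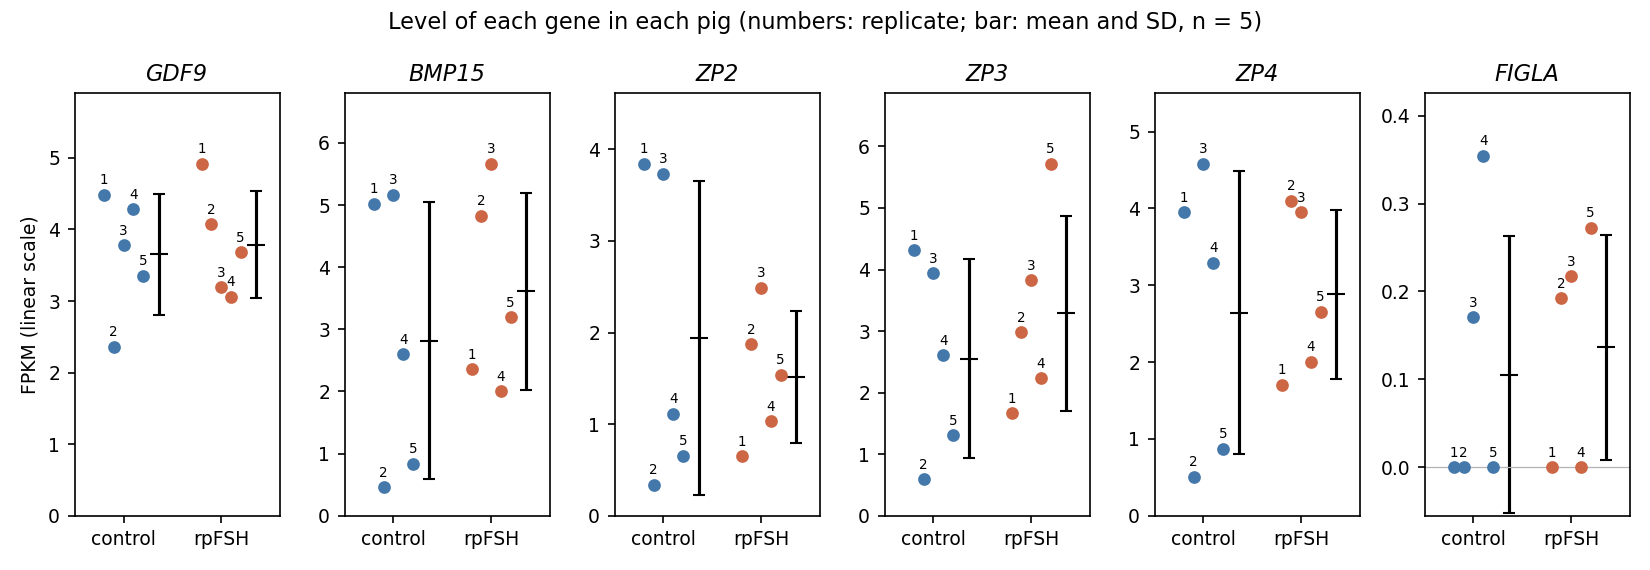
Levels of the 6 genes in FPKM (vertical axis, linear, a separate scale for each gene) in the control and rpFSH pigs. Points are pigs with their replicate numbers, and bars give the mean and SD of 5 pigs. Control pigs 2 and 5 are lowest for BMP15, ZP3 and ZP4, GDF9 spans only 2.08-fold, and FIGLA is at 0 in 5 of the 10 pigs.

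By mean level over the 10 pigs the order was GDF9 at 3.72 FPKM, BMP15 at 3.21, ZP3 at 2.92, ZP4 at 2.76, ZP2 at 1.73 and FIGLA at 0.121. FPKM is scaled by length, which allows genes to be set side by side, but the place of GDF9 is uncertain because 55.2% of its locus lay outside the gene and part of it overlapped UQCRQ. The first 4 did not differ beyond their spread: GDF9 was above BMP15 in 6 of 10 pigs, BMP15 above ZP3 in 5 and ZP3 above ZP4 in 5. ZP2 was below ZP4 in 10 of 10 pigs, by 0.73 ± 0.46 on the log2 scale (SD, n = 10), and FIGLA below ZP2 in 10 of 10. Among all loci tested the mean levels sat at percentile 62.7 for GDF9, between 36.1 and 56.5 for BMP15 and the zona genes, and at 1.64 for FIGLA. FIGLA was just above the limit for testing, a mean of 0.1 FPKM, and all 6 genes passed it. The coefficients of variation of BMP15, ZP2, ZP3 and ZP4 were 58.3%, 72.9%, 53.3% and 52.0%, at percentiles 72.9 to 84.8 of all loci.

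No member differed between the groups beyond the spread between pigs. With edgeR's quasi-likelihood test and Benjamini-Hochberg adjustment over 15170 loci, 0 of 6 had an adjusted p under 0.05, beside 0% of all loci, and each of the 6 had an adjusted p of 1.00. Unadjusted P values in this edgeR test were 0.430 for ZP3, 0.508 for BMP15, 0.557 for GDF9, 0.684 for ZP2, 0.733 for ZP4 and 0.749 for FIGLA. None of the 6 was under 0.05, against 4.76% of all loci, and none passed the study's own kind of rule (unadjusted P under 0.05 and more than 1 on the log2 scale), against 3.09% of all loci, 0.508% higher and 2.58% lower in the rpFSH group. That balance over all loci rested on control pigs 2 and 5: it was 77 loci higher and 391 lower with all pigs, and 306 higher and 117 lower without them. The groups overlapped for all 6. Among all loci, 0.0791% had every rpFSH pig above every control pig and 0.547% the reverse. The median fitted change was 0.32 over the members and -0.01 over all loci. DESeq2 made 86 calls over all loci and 0 among the members.

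A two-sided exact permutation test of each gene's log2 (FPKM + 0.1) gave the same reading. With 5 pigs against 5 the smallest p that this exact test can give is 0.00794, and the exact p values were 0.341 for BMP15, 0.405 for ZP3, 0.484 for ZP4, 0.762 for FIGLA, 0.770 for GDF9 and 0.929 for ZP2. The intervals bound the difference tightly only for the GDF9 locus. As 55.2% of that locus lay outside the gene, whether the bound holds for GDF9 itself was not tested. For BMP15 and the zona genes they reach beyond a change of 1 on the log2 scale, so a change of that size was not excluded.

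For the members other than ZP2, the sign of the small differences changed without control pigs 2 and 5. These pigs had both the lowest BMP15, ZP3 and ZP4 levels and the high ciliated epithelium markers. Without them the fitted log2 fold changes were -0.07 for GDF9, -0.15 for BMP15, -0.85 for ZP2, -0.06 for ZP3, -0.37 for ZP4 and -0.25 for FIGLA. All 6 were then below 0, where 5 of 6 had been above it with all pigs, and the smallest adjusted p by edgeR was 0.795. ZP2 was below 0 with and without them, but above 0 without control pig 1 (0.11) or control pig 3 (0.13). Without the 3 pigs with high luteal markers the changes were -0.02 for GDF9, 0.52 for BMP15 and -0.15 for ZP2. They were 0.55 for ZP3, 0.27 for ZP4 and 0.90 for FIGLA. Both removals of several pigs were chosen after the levels had been seen. The part of these markers in the result was not tested.

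**Figure D2:**
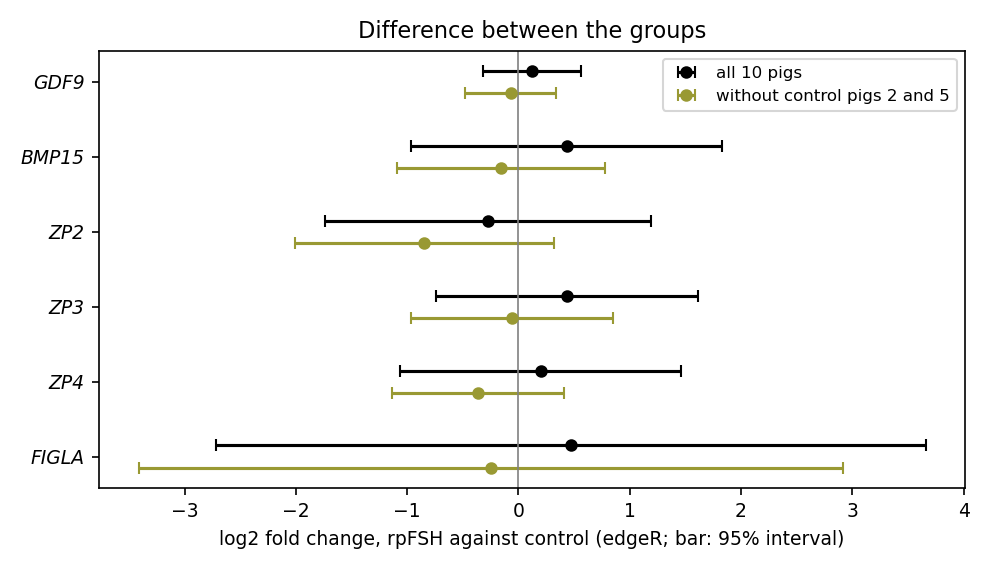
Fitted log2 fold change of rpFSH against control (horizontal axis) for each gene, with its 95% interval from edgeR, for all 10 pigs (black) and without control pigs 2 and 5 (olive). Every interval includes 0, and the point for each gene moves to below 0, or further below it for ZP2, when these pigs are left out.

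Ratios within a pig compare the members with each other in the same library. The log2 ratio of GDF9 to BMP15 was -0.16, 2.14, -0.44, 0.70 and 1.88 in the control pigs and 1.03, -0.24, -0.81, 0.59 and 0.20 in the rpFSH pigs. It was highest in control pigs 2 and 5, where BMP15 was lowest, and the groups overlapped. Its mean was lower by 0.67 in the rpFSH group (exact permutation p = 0.286, adjusted over 6 ratios 0.571), and without those 2 control pigs it was higher by 0.12.

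Within the zona genes, ZP2 made up 25.0% ± 6.41 of the summed zona FPKM in control pigs and 19.3% ± 3.59 in rpFSH pigs (SD, n = 5 each). ZP3 made up 38.4% ± 5.40 and 42.4% ± 9.27, and ZP4 36.6% ± 6.32 and 38.3% ± 7.18. ZP2 was thus the smallest share on average in both groups. The log2 ratio of ZP2 to ZP4 was -0.04, -0.47, -0.29, -1.48 and -0.37 in the control pigs and -1.28, -1.09, -0.65, -0.90 and -0.75 in the rpFSH pigs. Control pig 4 was the lowest of all, and the other 4 control pigs were above every rpFSH pig.

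The ratio of ZP2 to ZP4 was lower by 0.40 in the rpFSH group, which did not pass the test (exact permutation p = 0.183, adjusted over the 6 ratios 0.548). Without control pig 4 it was lower by 0.64, with an adjusted exact permutation p of 0.0476. That call rested on leaving out 1 library. Over the other alternatives none of the 6 ratios passed. The ratio of ZP3 to ZP2 was higher by 0.48 (exact permutation p = 0.159, adjusted 0.548), ZP3 to ZP4 by 0.08 (adjusted exact permutation p = 0.952) and growth factors to zona genes by 0.06 (adjusted exact permutation p = 0.952). FIGLA to the zona genes was lower by 0.04 (adjusted exact permutation p = 0.952).

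**Figure D3:**
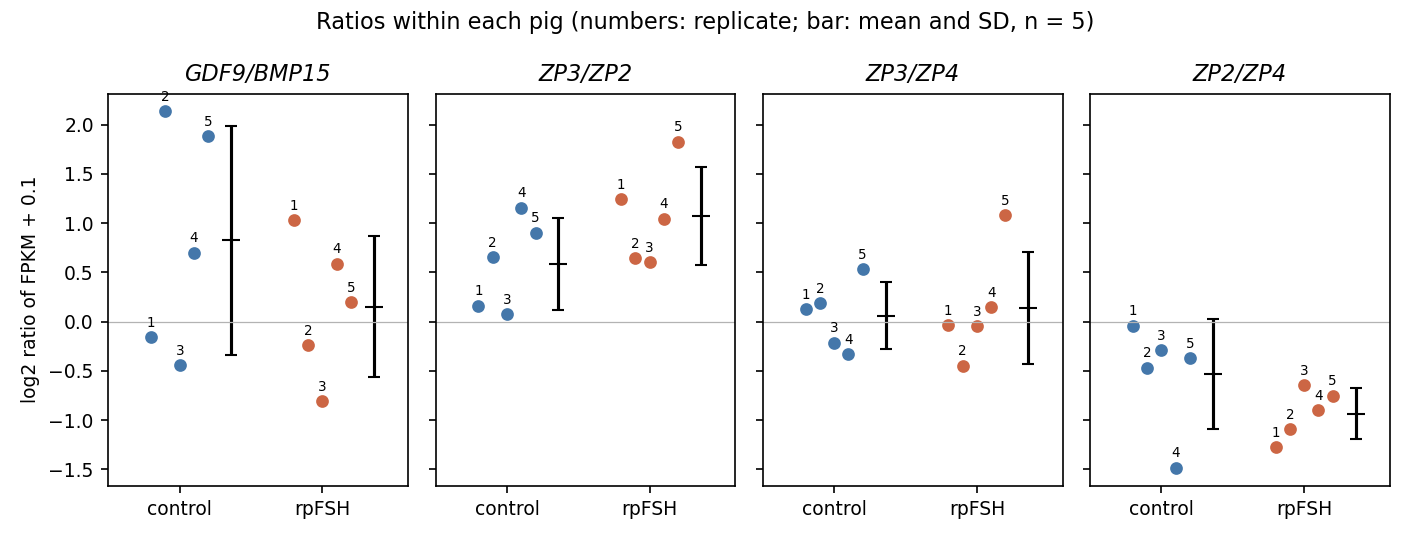
Log2 ratios of FPKM + 0.1 between pairs of members within each pig (vertical axis, shared), for control and rpFSH pigs. Points are pigs with their replicate numbers, and bars give the mean and SD of 5 pigs. The ratio of GDF9 to BMP15 is highest in control pigs 2 and 5, and for ZP2 to ZP4 control pig 4 lies apart from the other control pigs at -1.48.

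BMP15, ZP2, ZP3 and ZP4 went up and down together from pig to pig. Over the 10 pigs all 6 pairs among them had Pearson's r between 0.868 and 0.977, with permutation p values adjusted over the 15 member pairs of 0.00225 or below. The closest pair was BMP15 and ZP4. Spearman's rho was between 0.733 and 0.915, and 5 of the 6 pairs passed by rank, with an adjusted permutation p of 0.0515 for ZP3 and ZP4. The pigs carried this pattern within each group as well. The r was positive in all 6 pairs in each group taken alone, at 0.919 to 0.987 in the control pigs and 0.530 to 0.950 in the rpFSH pigs. The lowest rpFSH values were those of BMP15 with ZP3 (0.530) and ZP3 with ZP4 (0.576). When each group's mean was subtracted, r was 0.887 to 0.981.

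The size of these relations rested in part on the extreme pigs. Without the 2 pigs farthest from the median of the first gene of a pair, r was 0.610 to 0.885. The exact permutation p, here not adjusted over the pairs, was under 0.05 for 4 of the 6 pairs. The highest of these 4 was ZP2 with ZP3 (unadjusted exact p = 0.0231). The pairs above 0.05 were BMP15 with ZP3 (r = 0.630, unadjusted exact p = 0.0962) and ZP3 with ZP4 (r = 0.610, unadjusted exact p = 0.115). Without control pigs 2 and 5 the 3 pairs without ZP3 kept an adjusted exact permutation p under 0.05 by Pearson's r, and the 3 pairs with ZP3 did not. By Spearman's rho 0 of the 15 pairs passed without them, with a lowest adjusted exact permutation p of 0.109. ZP3 in rpFSH pig 5, at 5.72 FPKM, stood above the level of the other zona genes in that pig.

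GDF9 did not follow the others in this way. Its r with the 5 other members was 0.204 to 0.603, and 0 of 5 pairs passed (lowest adjusted permutation p = 0.108). It was positive in 5 of 5 pairs among the control pigs and in 0 of 5 among the rpFSH pigs, and without control pigs 2 and 5 all 5 values were below 0. FIGLA had r of 0.204 to 0.628 with the other members, and 0 of 5 pairs passed (lowest adjusted permutation p = 0.107). Of the overlapping neighbours, UQCRQ had r = 0.157 with GDF9 (permutation p = 0.669, adjusted over 2 pairs 0.669) and 0.437 without the 2 farthest pigs, and TMEM159 had r = 0.422 with ZP2 (permutation p = 0.227, adjusted 0.453) and 0.158 without them. Spearman's rho was 0.297 (permutation p = 0.410) and 0.503 (permutation p = 0.145).

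**Figure D4:**
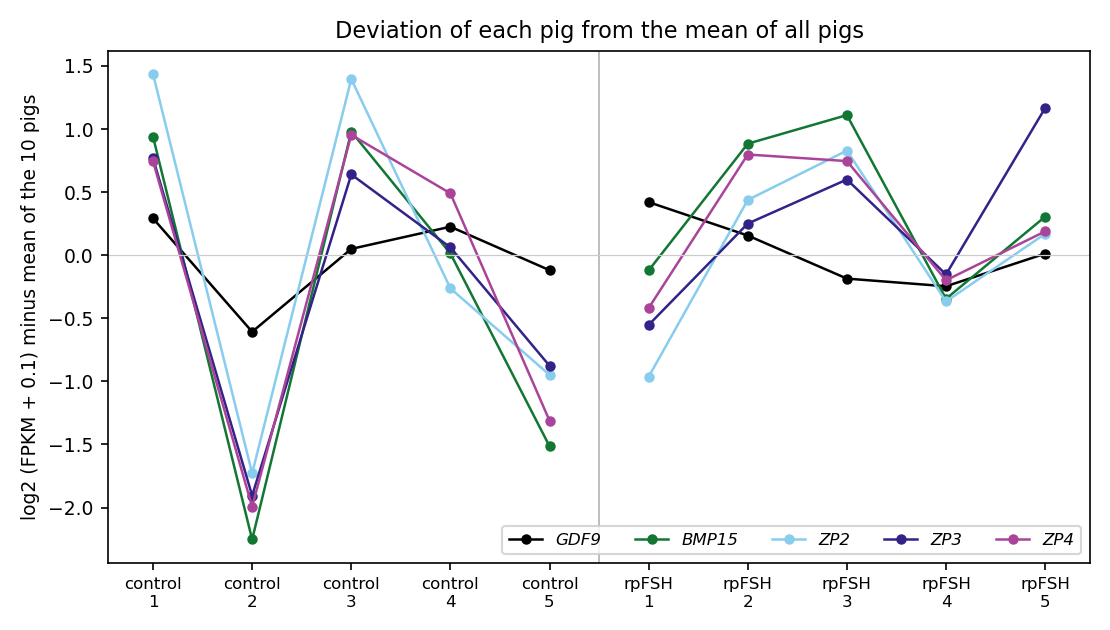
Deviation of each pig from the mean of the 10 pigs in log2 (FPKM + 0.1) (vertical axis) for GDF9, BMP15, ZP2, ZP3 and ZP4, with the pigs along the horizontal axis. Lines join the values of a gene and carry no order of pigs. The lines of BMP15, ZP2, ZP3 and ZP4 dip together at control pigs 2 and 5 and stand above 0 at control pigs 1 and 3, while GDF9 (black) stays closer to 0.

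Summed over the members, the control pigs held 21.6, 4.26, 21.4, 14.2 and 7.03 FPKM and the rpFSH pigs 11.3, 18.1, 19.3, 10.3 and 17.1 FPKM. The pigs with high luteal markers (control 2, rpFSH 1 and rpFSH 4) and the pigs with high ciliated markers (control 2 and 5) were the 4 lowest. Among them control pig 2, which had both, was the lowest. Levels of STAR, a cholesterol transporter of steroid-making cells, were 532 FPKM in control pig 2, 448 in rpFSH pig 1 and 121 in rpFSH pig 4. FOXJ1, the master regulator of motile cilia, was at 5.82 FPKM in control pig 2 and at or below 0.212 in the 8 pigs other than control 2 and 5. Their part in the member levels was not tested.

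The loci most like the members were ranked by Pearson's r with the mean standardised member profile over the 10 pigs. The members, each a part of that profile, had r of 0.980 (ZP4), 0.967 (BMP15), 0.937 (ZP3) and 0.887 (ZP2). FIGLA (0.669) and GDF9 (0.655) were lower, so a high r here describes likeness to BMP15 and the zona genes more than to these members. The ranking is a description, since the points share libraries, and 48 loci had r above 0.9, beside a median of -0.11 over all loci. The 8 closest with a symbol were CEP170 (r = 0.963), NLRP9 (0.958), PHF20L1 (0.955), BCLAF1 (0.948), a merged locus with RBM26 (0.946), ESR2 (0.944), HSF2 (0.943) and PADI6 (0.942). NLRP9 and PADI6 are egg genes, PADI6 being part of the cytoplasmic lattices of the oocyte. NLRP9 was at 2.59, 0.320, 2.44, 1.36 and 0.505 FPKM in the control pigs and at 1.00, 1.75, 1.54, 1.19 and 2.03 FPKM in the rpFSH pigs. ESR2, the estrogen receptor found in granulosa cells, was at 1.82, 0.437, 1.58, 1.48 and 0.652 FPKM in the control pigs and at 1.10 to 1.84 FPKM in the rpFSH pigs. Both were lowest in control pigs 2 and 5, as BMP15, ZP3 and ZP4 were. CEP170, a centrosome protein, moved far less, between 4.39 and 6.92 FPKM. Leaving out the 2 pigs farthest from the median profile, which were control 2 and 5, lowered r for these 8 to between 0.720 and 0.898. Over all loci tested, 15.2% had r above 0.5 with all pigs and 11.3% without these 2.

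The other egg genes followed the members only in part. Of 21 listed symbols for maternal effect and egg genes, 13 were matched and tested, and 10 of these had r above 0.5 with the member profile. Without control pigs 2 and 5 the count was again 10, but not the same 10. MOS fell from 0.639 to 0.226 and NPM2 rose from -0.190 to 0.544. ZAR1, a maternal factor needed at the oocyte-to-embryo transition, was at 0.825, 0.0317, 0.482, 0.330 and 0.0642 FPKM in the control pigs and at 0.172, 0.338, 0.569, 0.430 and 0.851 FPKM in the rpFSH pigs. Its r was 0.865 (0.527 without control pigs 2 and 5), and its lowest pigs were again those 2. OOEP, a protein of the same lattices as PADI6, had r = 0.874 and was listed at 0.0001 FPKM, the lowest value written, in control pigs 2 and 5 and rpFSH pig 4. The other listed genes ZAR1L and NLRP13 had r of 0.796 and 0.740.

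Of 9 listed germ cell and oocyte transcription regulators, 6 were matched and tested, and 2 had r above 0.5: LHX8 (0.821) and NOBOX (0.640), both regulators of early follicles. Neither stayed above 0.5 without control pigs 2 and 5, where LHX8 was at 0.486 and NOBOX at -0.057, while YBX2 was at 0.730 and TAF4B at 0.512. NOBOX was listed at 0.0001 FPKM in control pig 2 and highest in rpFSH pig 5, at 0.677 FPKM. DDX4, an RNA helicase of germ cells, ran differently: it was at 0.478, 1.02, 0.553, 0.822 and 0.307 FPKM in the control pigs and at 0.632, 0.262, 0.410, 0.653 and 0.757 FPKM in the rpFSH pigs, with r = -0.32. Its highest pig was control 2, the lowest for BMP15 and the zona genes. KIT, the oocyte's receptor for the KIT ligand of granulosa cells, was at 5.55 to 8.96 FPKM in the control pigs and 5.60 to 8.21 in the rpFSH pigs.

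**Figure D5:**
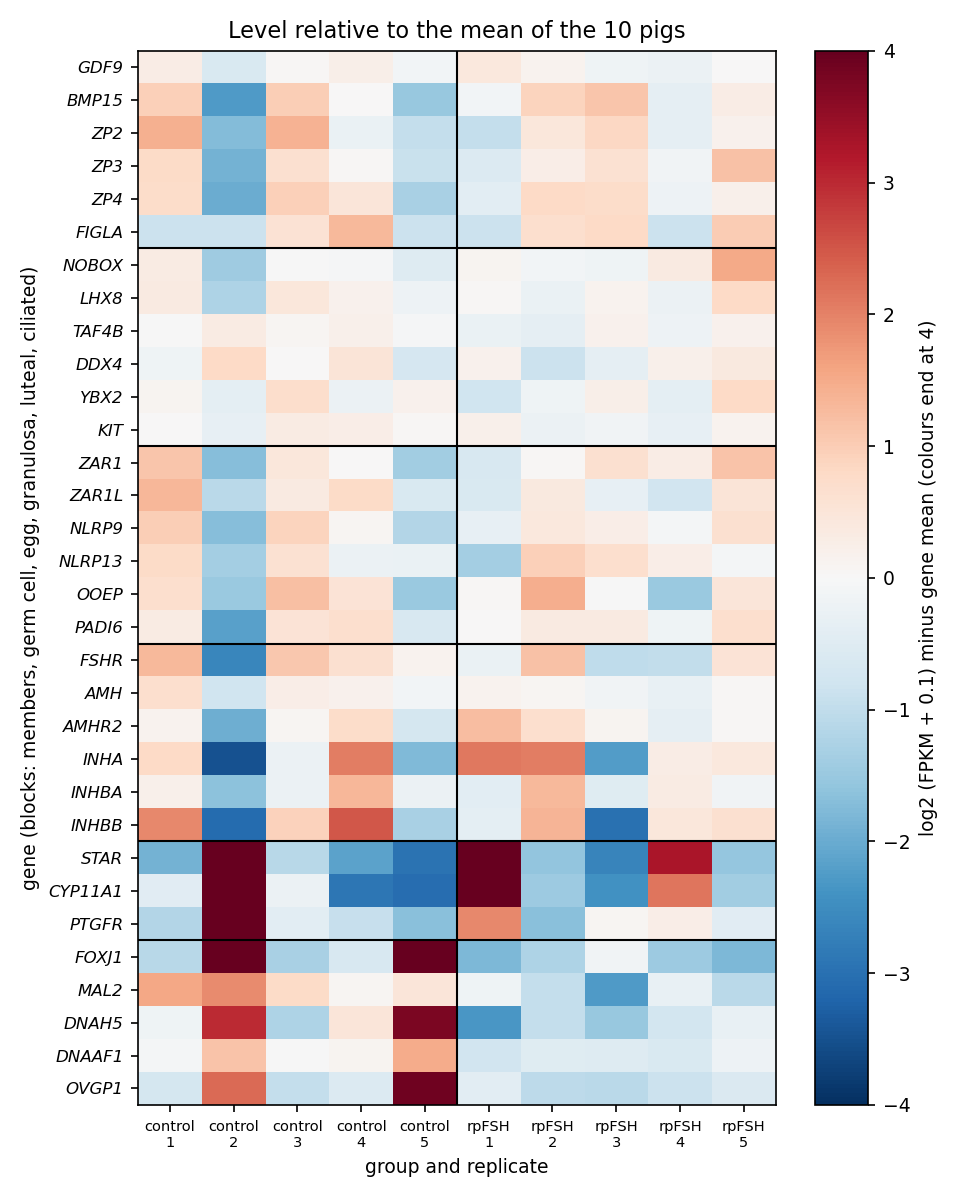
Levels of the members and of listed genes (rows, in blocks: members, germ cell regulators, egg genes, granulosa, luteal and ciliated markers, the first 6 found of each list) in each pig (columns). Colour gives log2 (FPKM + 0.1) minus the mean of the gene over the 10 pigs, ending at 4. Control pig 2 is low for BMP15, the zona genes, the egg genes and the granulosa markers and high for luteal and ciliated markers.

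Granulosa cells, which surround the oocyte and receive GDF9 and BMP15, had markers that ran the same way as the members over all 10 pigs, but mostly not without control pigs 2 and 5. All 7 tested markers of 8 listed had r above 0.5 with all pigs, and 2 of 7 had it without these pigs. FSHR, the receptor for the injected hormone, had r of 0.776 and 0.665, and AMH 0.789 and 0.513. The other 5 then lay between -0.25 for INHA and 0.14 for INHBB. The loci of AMH and INHBA also carried another gene name, so their values are uncertain. FSHR was at 7.02, 0.375, 5.97, 4.36 and 3.05 FPKM in the control pigs and at 2.29, 6.36, 1.33, 1.36 and 4.13 FPKM in the rpFSH pigs. The summed markers were at 7.05 to 175 FPKM among control pigs and 15.4 to 133 among rpFSH pigs, and control pig 2 was lowest. In rpFSH pig 3 they were the second lowest while BMP15 was at its highest, 5.66 FPKM. Of the 4 theca markers 4 had a positive r and 3 had r above 0.5, of which 2 did without control pigs 2 and 5. The GLI1 locus (r = 0.659 without these pigs) and the OVGP1 locus among the ciliated markers also carried another gene name. No positive r was seen in 4 lists with all pigs: the luteal (0 of 3), ciliated (0 of 5) and endothelium markers (0 of 3) and the cumulus response genes (0 of 5, median -0.31). Without control pigs 2 and 5 the r was positive for 4 of 5 ciliated markers, 3 of 5 cumulus response genes, 1 of 3 endothelium markers and 0 of 3 luteal markers. Over all loci tested, r was positive for 43.1% with all pigs and 46.8% without control pigs 2 and 5. These short lists were not tested against those shares.

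The receptors and signal carriers of GDF9 and BMP15 were more even as a sum, though not each gene alone. With the member profile, 6 of 13 had a positive r and 3 had r above 0.5, beside 43.1% and 15.2% of all loci. Without control pigs 2 and 5 these counts were 7 and 3, beside 46.8% and 11.3%. All 13 listed genes were found, and their summed level was 71.7 to 80.4 FPKM among control pigs and 67.7 to 80.4 among rpFSH pigs. BMPR2, the type II receptor used by both factors, was at 12.4 to 18.3 FPKM in the control pigs and 15.2 to 16.6 in the rpFSH pigs. BMPR1B, the type I receptor of BMP15, was at 1.57, 5.32, 1.13, 1.76 and 1.15 FPKM in the control pigs and at 5.15, 1.70, 0.805, 2.06 and 1.21 FPKM in the rpFSH pigs. It was highest in control pig 2 and rpFSH pig 1, which also had the highest luteal markers. None of the 13 passed the edgeR test (adjusted p of 1.00 for each), and 7 had a fitted change above 0 and 6 below, with a median of 0.06.

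No gene of the other lists passed either. With edgeR's adjusted p, 0 genes were called in any of the 13 lists, beside 0% of all loci. Over all loci, 7369 of 15170 fitted changes were above 0. Fitted changes were above 0 for 7 of 13 egg genes (median 0.04), 2 of 6 germ cell regulators (-0.06), 1 of 3 zona and egg surface partners (-0.99), 2 of 5 cumulus response genes (-0.14) and 2 of 3 E-protein partners of FIGLA (0.15). For the cell type markers they were above 0 for 4 of 7 granulosa (0.19), 0 of 4 theca (-0.41), 1 of 3 luteal (-0.82), 3 of 4 stroma (0.27), 1 of 4 leukocyte (-0.15) and 3 of 3 endothelium genes (0.34). The luteal direction rested on few libraries and on the method. Without control pig 2 all 3 were above 0 (median 3.47). All 3 then passed the study's kind of rule, beside 417 of 15170 loci, 144 of them higher. Without control pigs 2 and 5 the median was 3.15 and 1 of 3 passed. Without the 3 pigs with high STAR (control 2, rpFSH 1 and rpFSH 4) the median was 0.13, and none passed. With all pigs the median was 0.43 and 0.47 with limma (pseudocounts 1 and 0.1) and 1.36 with the replicate block. The 5 ciliated markers were all below 0 (median -2.85) and all passed the study's kind of rule, against 2.58% of all loci in that direction. Without control pigs 2 and 5 the median of these markers was -0.50, and 1 of 5 was above 0. There 1 of 5 passed, beside 423 of 15170 loci (117 lower). With the replicate block 3 of 5 passed, beside 190 of 15170 loci (140 lower). With all pigs DESeq2 called DNAH5 and MAL2 among the ciliated markers, each with an adjusted p of 0.0162. On simulated counts 23.6% of the calls of DESeq2 fell on unchanged loci, against 4.58% for edgeR.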

How the data were processed

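RNA-seq was measured in whole ovary of 5 control and 5 rpFSH pigs. The authors deposited raw counts and FPKM per gene locus. Per the labels and methods, reads were mapped to Sscrofa11.1 with HISAT2 2.0 and Bowtie (0.12.2 in the submitters' notes) and assembled with StringTie 1.3.0. How the counts were made is not given in the sources used here. The labels name poly(A) selection, the methods rRNA removal. Columns of the authors' own comparison (fold changes and p-values) were not used.

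Counts were tested with edgeR 4.0.16 (TMM, quasi-likelihood, Benjamini-Hochberg) over 15170 protein-coding loci with a mean of at least 0.1 FPKM, tested on simulated data first. There 200 loci were changed by 2 on the log2 scale. Of these edgeR called 62.5% and DESeq2 81%. Library sizes came from all loci. FPKM served for levels, two-sided exact permutation tests, ratios and correlations (100000 permutations) on log2 (FPKM + 0.1). Alternatives used DESeq2 1.42.0, limma 3.58.1, other scalings, filters and pseudocounts, a replicate block, and fewer pigs. Replicates were separate pigs, and no replicate was dropped or imputed in the tests reported with all pigs.

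The members and the 13 gene lists were chosen with earlier results of these data known. Named genes were the members, up to 6 per list in written order, and the 8 loci closest to the member profile. UCHL1, H1FOO, MOS and NPM2 were named outside this rule. Loci were matched by symbol; gene positions from RefSeq are of the same build.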

Additional observations from a re-analysis of the deposited data

How the results depend on the processing

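No alternative called a member: over 125 refits the smallest adjusted p was 0.795, and 113 kept the sign. ZP2 turned to 0.043 with limma on log2 (FPKM + 0.1) and to 0.17 with the replicate block, and its level difference to -0.067 with pseudocount 1. Without control pigs 2 and 5 (chosen after seeing the data, as was the removal of the high-STAR pigs) fitted changes were -0.068 (GDF9), -0.15 (BMP15), -0.062 (ZP3), -0.37 (ZP4) and -0.25 (FIGLA). Level differences were then -0.16 (GDF9), -0.28 (BMP15), -0.84 (ZP2), -0.23 (ZP3), -0.51 (ZP4) and -0.19 (FIGLA), the ratios GDF9 to BMP15 0.12 and FIGLA to zona 0.34, and r of GDF9 with BMP15 -0.0485, ZP2 -0.153, ZP3 -0.264, ZP4 -0.0770 and FIGLA -0.180. Without the 3 high-STAR pigs (control 2, rpFSH 1 and rpFSH 4) GDF9 was at -0.019 (level -0.12), growth factors to zona at -0.047, FIGLA to zona at 0.48 (also 0.48 with pseudocount 0.01), and r of FIGLA at -0.0188 with GDF9 and -3.4e-04 with ZP2. In each of these removals 3 member pairs passed by Pearson's r, against 6, and 0 by Spearman's rho, against 5 (lowest adjusted exact permutation p 0.109 and 0.357).

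Loci past the study's kind of rule numbered 468, but 17 and 188 with limma (pseudocounts 1 and 0.1), 145 at a mean FPKM of at least 1 (FIGLA not tested there), 1305 over loci of every kind, 190 with the block and 183 without the high-STAR pigs; the split of 77 higher and 391 lower became 306 and 117 without control pigs 2 and 5. DESeq2 called 86 loci and 2 listed genes. The replicate numbers did not pair the pigs (r = -0.137, 0 of 5 matching best).

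Leaving out each pig in turn, fitted changes ranged from -0.54 to 0.13 for ZP2 and -0.053 to 0.52 for ZP4, and levels from -0.081 to 0.14 for GDF9 and -0.38 to 0.41 for ZP2. Ratio differences ranged from -0.16 to 0.23 (ZP3 to ZP4), -0.64 to -0.28 (ZP2 to ZP4), -0.13 to 0.18 (growth factors to zona) and -0.51 to 0.26 (FIGLA to zona), and calls over all loci from 0 to 1. The causes were not tested. FIGLA had counts in 5 of 10 libraries, at most 21.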

Other observations

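UCHL1, a deubiquitinase of oocytes and other cells, was highest in the pigs with the highest luteal markers, control 2 (38.0 FPKM) and rpFSH 1 (31.2 FPKM), against 3.52 to 13.9 FPKM in the other 8 pigs. Its r with the member profile was -0.55 (-0.42 without control pigs 2 and 5), although it stood in the list of egg genes. UCHL1 fell outside the rule for named genes and was chosen after its values were seen. TAF4B, a germ cell subunit of the basal transcription machinery, was at 3.19 to 4.14 FPKM in the control pigs and 2.56 to 3.71 in the rpFSH pigs, with r = -0.15 (0.512 without control pigs 2 and 5), and its highest pig was control 2.

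H1FOO, the oocyte linker histone, had Pearson's r of 0.851 and Spearman's rho of 0.939 with the member profile, and its r was 0.934 without control pigs 2 and 5. It was chosen after its values were seen. It was at 2.60, 0.101, 2.31, 0.606 and 0.351 FPKM in the control pigs and at 0.274, 1.21, 1.25, 0.120 and 0.743 FPKM in the rpFSH pigs.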
